A study of Homo sapiens with 6 samples.

Results

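The TGF-beta genes examined here, called members, are 10 of the 19937 genes in the count table. They comprise the ligands TGFB1 and TGFB2, the receptors TGFBR1 and TGFBR2, the receptor-activated SMADs SMAD2 and SMAD3, the inhibitory SMAD7, the SMAD corepressor SKIL, and the induced genes PMEPA1 and TGFBI. The genes were grouped by their role in the pathway and were selected on their log2 fold changes between the shSQLE and shControl groups, so these fold changes are a description of the genes and were not tested again as evidence. U2OS is an established osteosarcoma cell line, and it was grown in McCoy's 5a medium with fetal bovine serum. Both groups carried a lentiviral pGIPZ construct and were selected with puromycin. In the 3 shSQLE libraries (genotype SQLE-shRNA) the hairpin was directed against squalene epoxidase, the sterol synthesis enzyme, and in the 3 shControl libraries (genotype scrambled-shRNA) its sequence was scrambled. The hairpin used for sequencing is not named, and nothing in the labels says that libraries of a group came from separately silenced cultures, so SDs and p-values measure the spread between these libraries, which may be technical.

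TGF-beta is secreted as a latent dimer that is released from the matrix and binds TGFBR2, which recruits and phosphorylates TGFBR1. TGFBR1 in turn phosphorylates SMAD2 and SMAD3, which enter the nucleus with SMAD4 and bind DNA together with other factors. Their targets include feedback inhibitors such as SMAD7, SKIL and PMEPA1, together with matrix genes such as TGFBI. In bone, TGF-beta is stored in the matrix and acts on osteoblast-lineage cells.

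Library totals ranged from 12212378 to 14393292 counts, and SQLE in shSQLE was 12.7% of its level in shControl. A normalized count is the count of a gene scaled to the mean effective library size. One library in each group stood apart from the others, shControl replicate 1 by far the more. A chi-square test over genes, divided by its degrees of freedom (near 1 where counts differ by sampling alone), gave 51.3 and 60.8 for shControl replicate 1 against replicates 2 and 3, and 2.76 between replicates 2 and 3. For shSQLE replicate 3 it gave 9.44 and 15.2 against replicates 1 and 2, which gave 3.31 between them. Between groups, shControl replicate 1 gave 30.8, 25.4 and 51.7 against shSQLE replicates 1, 2 and 3. By this measure it was nearer to shSQLE replicates 1 and 2 than to either of the other controls. The median log2 difference of shControl replicate 1 from the mean of the other control replicates was -0.58 in genes of the lowest quintile of GC content and 0.56 in those of the highest. Results are therefore also given without shControl replicate 1, and over the omission of each other library. Of 10 osteoblast-lineage markers, SPARC, CDH11, RUNX2, COL1A1 and SPP1 were among those detected well enough to be tested, whereas SP7 and IBSP had no count in any library. Markers of other cell types (16 genes) summed to between 5.90 and 6.55 CPM (counts scaled to library size, in counts-per-million units) in shControl. In shSQLE they summed to between 5.18 and 7.26 CPM. Of the 16, 4 were at 0 in every library, PTPRC, CD3E and KRT14 among them, and 12 had counts. Only 2 were detected well enough to be tested, with log2 fold changes (shSQLE minus shControl) of -1.67 and 0.40. The 10 osteoblast-lineage markers, of which 6 were tested, summed to between 573 and 629 CPM in shControl and between 488 and 499 in shSQLE. Most of these sums was SPARC, with a mean of 429 CPM over the 6 libraries, so they mainly describe this gene. The part of this difference in the results was not tested. The data are from bulk RNA, in which fewer cells of a kind and less RNA per cell cannot be told apart.

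The DNA around these genes was read to show where sequences known to bind SMAD complexes lie. The palindrome GTCTAGAC, a SMAD-binding element that reads alike on both strands, occurred 7623 times in the gene bodies of the counted genes, or 0.554 times per 100 kb. It occurred 3 times within PMEPA1, a gene of 63145 bases on the minus strand of chromosome 20, and 1 time within SMAD7, a gene of 31113 bases on the minus strand of chromosome 18. These 4 sites were picked after the values were seen, because both genes encode feedback inhibitors that were lower in every shSQLE library. A link between such sites and the levels was not tested. Capitals mark the palindrome, letters run 5′ to 3′ on the strand of the gene, coordinates are of hg38, and all 4 lie in introns of GENCODE v44.
PMEPA1 chr20:57689320-57689349: tcagactggcgGTCTAGACactcatgctcc
PMEPA1 chr20:57685423-57685452: ttgttatctgtGTCTAGACagcacgccagc
PMEPA1 chr20:57685132-57685161: tctttatgactGTCTAGACgttctgcagat
SMAD7 chr18:48922414-48922443: gtggtcccagaGTCTAGACacctgggttct
Their distances from the start of the gene were 22198, 26095 and 26386 bases in PMEPA1 and 28533 bases in SMAD7. TGFB2 held 2 such palindromes, SMAD2, SMAD3, TGFBI and TGFBR2 held 1 each, and TGFB1, TGFBR1 and SKIL held 0. Within 1000 bases of the gene start, the palindrome was present in 0 of the 10 genes and in 1.04% of all 19905 genes with an annotated start. A match is a run of letters, and binding was not measured.

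Promoter windows of 250 bases before the transcription start (RefSeq, GRCh38.p14) were available for all 10 genes, and each motif was searched on both strands. Several genes had more than 1 RefSeq window, such as TGFBR1 with 8, SMAD3 with 5, PMEPA1 with 4 and SMAD7 with 3. Only the window whose start was nearest the GENCODE gene start was used, and the other starts are not described. The start used lay 1839 bases into the GENCODE gene in SMAD3, 373 in SKIL and 274 in SMAD2. TGFB2 and SMAD7 are shown as the least abundant ligand and as a feedback inhibitor, each with CAGAC, a half-site of SMAD binding, in capitals.
SMAD7 chr18:48950966-48951215, minus strand: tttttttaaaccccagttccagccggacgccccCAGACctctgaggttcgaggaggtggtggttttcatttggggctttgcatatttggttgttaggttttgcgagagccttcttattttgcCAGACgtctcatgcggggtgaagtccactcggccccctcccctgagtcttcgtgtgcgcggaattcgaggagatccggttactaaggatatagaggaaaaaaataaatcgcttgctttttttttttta
TGFB2 chr1:218345086-218345335, plus strand: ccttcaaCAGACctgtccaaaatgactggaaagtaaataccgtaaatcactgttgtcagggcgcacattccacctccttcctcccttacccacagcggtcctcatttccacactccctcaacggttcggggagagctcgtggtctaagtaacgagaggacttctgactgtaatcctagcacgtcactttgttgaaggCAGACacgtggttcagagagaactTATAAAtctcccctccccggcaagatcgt
The capitals TATAAA in TGFB2 mark a TATA motif, found in 1 of the 10 windows and in 10.7% of 35116 windows of the same length. CAGAC was present in 4 of the 10 windows, those of TGFB2, TGFBR1, SMAD7 and SKIL, and in 38% of all windows. The GC box GGGCGG was present in 6 windows, with 6 copies in TGFB1, and in 42.6% of all windows. The activating protein 1 site TGACTCA was in 0 of the 10 windows and in 4.2% of all. SKIL alone among the 10 held the cyclic AMP response element TGACGTCA, which 1.65% of all windows hold, shown here with its surroundings.
SKIL chr3:170357650-170357679, plus strand: cgaggactcggTGACGTCAgagggctgtgt
This SKIL start lies within the GENCODE gene, and the element is 47 to 54 bases upstream of it. The windows ranged in GC content from 40.8% in TGFBR1 to 80.8% in SMAD3, against a median of 58.0% over all windows. No capitals of one motif overlap those of another in the sequences shown.

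Levels were compared between genes per length, as transcripts-per-million values (TPM) on the canonical transcript of GENCODE v44. TGFBI, which encodes a secreted matrix protein, was the most abundant at 432 ± 22.4 TPM in shControl (SD, n = 3). TGFB1 followed at 140 ± 25.3 TPM. Then came TGFBR2 at 61.4 ± 22.5 TPM. SMAD3 at 31.6 ± 6.74, PMEPA1 at 31.1 ± 0.543, TGFBR1 at 30.7 ± 12, SMAD7 at 23.4 ± 4.50 and SKIL at 18.5 ± 6.49 TPM formed a run in which each overlapped its neighbours in single libraries, as TGFBR2 and SMAD3 also did. SMAD2 lay below them at 5.46 ± 1.35 TPM, but its canonical transcript is 34626 nt long, and on the median length of its coding transcripts its level was 90.2 TPM. On those median lengths SMAD3 was at 68.9, SMAD7 at 42.4, TGFBR2 at 39.9 and TGFBI at 699.9 TPM, so that the order from TGFBR2 to SMAD2 depended on the transcript lengths used, while TGFBI and TGFB1 stayed highest and TGFB2 lowest. TGFB2 was lowest, at 0.278 ± 0.220 TPM, far below TGFB1.

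**Figure D1:**
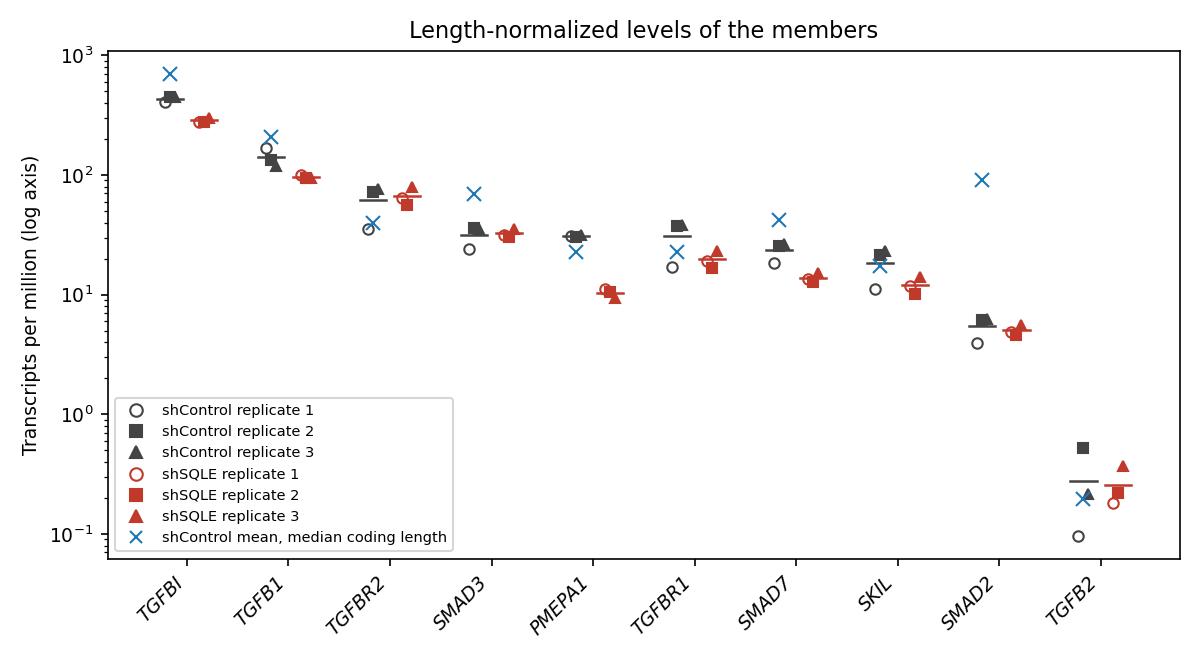
TPM of the 10 TGF-beta genes in each library (log axis), ordered by the shControl mean, with group means as lines and crosses for the shControl mean on the median coding transcript length. TGFBI lies highest at 432 TPM and TGFB2 lowest at 0.278 TPM, and the cross of SMAD2 at 90.2 TPM lies far above its points.

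In the comparison of shSQLE with shControl, PMEPA1, SMAD7 and TGFBI were lower in every shSQLE library, and SMAD2 and SMAD3 hardly differed. The sizes of the differences in TGFB1, TGFBR1, TGFBR2 and SKIL depended on shControl replicate 1. Gene coordinates are of GENCODE v44 on hg38. The ligand TGFB1 (ENSG00000105329, chromosome 19, 41301587 to 41353922, minus strand) had normalized counts of 3786, 2405 and 2059 in shControl replicates 1, 2 and 3. In shSQLE replicates 1, 2 and 3 it had 2057, 2015 and 1745. The groups did not overlap, but the lowest control and the highest shSQLE library were almost equal, and the high value of shControl replicate 1 set most of the difference. The log2 fold change was -0.50 (standard error 0.22), and -0.20 without that library. TGFB1 shares 215 exonic bases with HNRNPUL1 on the opposite strand, and the strand setting of the counting is not stated.

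TGFB2 (ENSG00000092969, chromosome 1, 218345336 to 218444619, plus strand), a second ligand that signals through the same receptors, had 4, 22 and 8 raw counts in the shControl replicates and 8, 10 and 14 in the shSQLE replicates. It did not pass the filter on low counts, and a difference was not detectable at this depth. With fitted folds on so few counts, its log2 fold change ranged from -0.40 to 0.12 over the 6 alternatives that kept it.

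The receptors had log2 fold changes of opposite sign. TGFBR1 (ENSG00000106799, chromosome 9, 99104038 to 99154192, plus strand), the kinase that phosphorylates SMAD2 and SMAD3, had normalized counts of 890, 1570 and 1536 in shControl replicates 1, 2 and 3. In the shSQLE replicates it had 927, 829 and 1006. The groups overlapped only through shControl replicate 1, which lay with the shSQLE libraries. The log2 fold change was -0.53 (standard error 0.22), and -0.75 without that library. TGFBR2 (ENSG00000163513, chromosome 3, 30606601 to 30694142, plus strand), the receptor that binds the ligand, had 1305, 2116 and 2167 in the shControl replicates. In the shSQLE replicates it had 2173, 1972 and 2409, and again shControl replicate 1 was the low library of its group. Its log2 fold change was 0.23 (standard error 0.20), and 0.03 without shControl replicate 1.

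SMAD2 and SMAD3 differed little. SMAD2 (ENSG00000175387, chromosome 18, 47808957 to 47931146, minus strand) had normalized counts of 1099, 1390 and 1361 in shControl and 1255, 1232 and 1299 in shSQLE, with a log2 fold change of -0.02 (standard error 0.12). SMAD3 (ENSG00000166949, chromosome 15, 67063763 to 67195173, plus strand) had 1251, 1501 and 1419 in shControl and 1514, 1507 and 1533 in shSQLE, with a log2 fold change of 0.13 (standard error 0.11). Every shSQLE library lay above every shControl library for SMAD3, though the nearest libraries, shSQLE replicate 2 and shControl replicate 2, were almost equal. Over the alternatives SMAD2 ranged from -0.12 to 0.04 and SMAD3 from 0.06 to 0.19 on the log2 scale.

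Of the feedback inhibitors, SMAD7 and PMEPA1 were lower in every shSQLE library than in any control. SMAD7 (ENSG00000101665, chromosome 18, 48919853 to 48950965, minus strand), which occupies the activated type I receptor and recruits ubiquitin ligases to it, had normalized counts of 495, 557 and 550 in the shControl replicates. In the shSQLE replicates it had 336, 326 and 337. The groups were well apart and tight within themselves, at 534 ± 33.8 against 333 ± 5.96 (SD, n = 3 each). The log2 fold change was -0.68 (standard error 0.12) and ranged from -0.73 to -0.65 over the alternatives. This was the narrowest range of the 9 members tested.

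PMEPA1 (ENSG00000124225, chromosome 20, 57648392 to 57711536, minus strand) encodes a membrane protein that keeps SMAD2 and SMAD3 from the receptor, and it had the largest log2 fold change of the 9 members tested. Its normalized counts were 1252, 979 and 978 in shControl replicates 1, 2 and 3. In the shSQLE replicates they were 411, 398 and 309. Every shSQLE library was well below every control, with 34.9% of the control mean left (1070 ± 158 against 373 ± 55.4, SD, n = 3 each). The log2 fold change was -1.52 (standard error 0.16), with a range of -1.59 to -1.39 over the alternatives, the latter without shSQLE replicate 3. Of all genes tested, 1.36% had a lower fold change than PMEPA1.

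SKIL (ENSG00000136603, chromosome 3, 170357342 to 170396835, plus strand), which holds SMAD complexes in a repressed state until TGF-beta causes its degradation and is then induced again, had normalized counts of 642, 999 and 1025 in shControl. In shSQLE it had 631, 555 and 665, and shControl replicate 1 lay within their range. The log2 fold change was -0.53 (standard error 0.19), and -0.71 without shControl replicate 1. TGFBI (ENSG00000120708, chromosome 5, 136028988 to 136063818, plus strand) had 8935, 7802 and 7549 in shControl. In shSQLE it had 5620, 5775 and 5428, so the groups were apart in this abundant gene. Of the control mean 69.3% was left, with a log2 fold change of -0.53 (standard error 0.10, and -0.45 without shControl replicate 1).

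**Figure D2:**
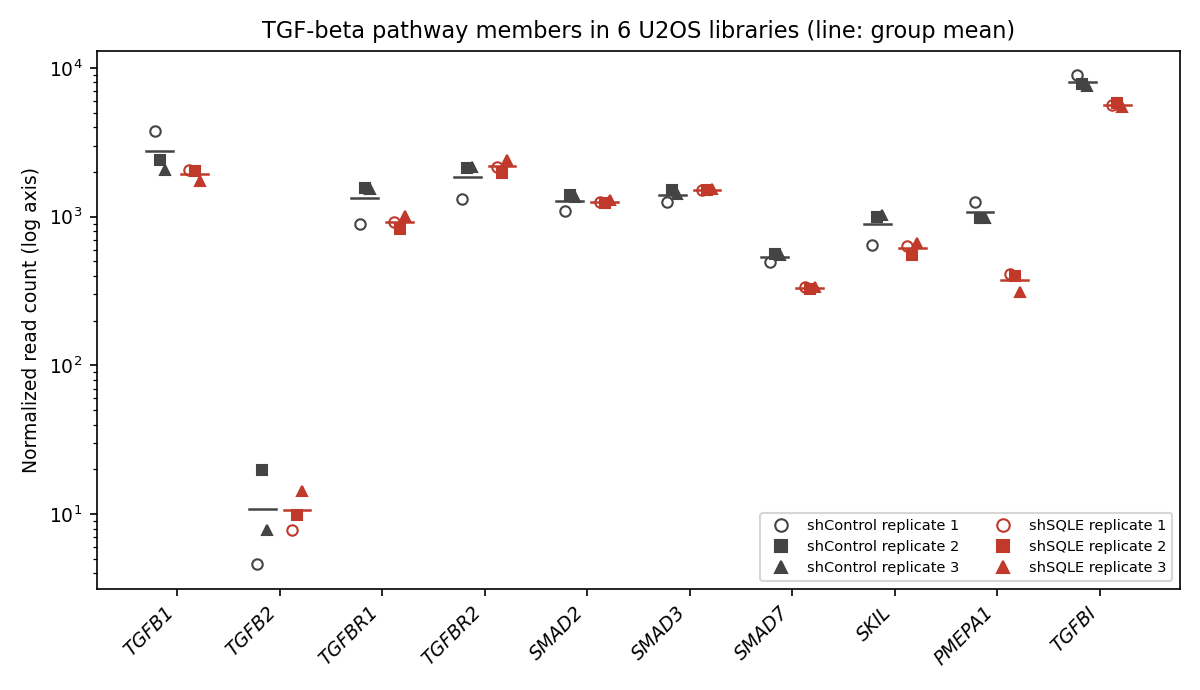
Normalized read counts of the 10 genes in each of the 6 libraries (log axis), black for shControl and red for shSQLE, with open circles for replicate 1 and lines for group means. PMEPA1, SMAD7 and TGFBI separate the groups clearly, and shControl replicate 1 stands away from the other control libraries in TGFB1, TGFBR1, TGFBR2 and SKIL.

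The 10 genes thus gave 9 that could be tested, and 1 (TGFB2) that could not. Of the 9, 7 had a negative and 2 a positive log2 fold change, with a median of -0.53, where the median of all 12450 genes tested was -0.01. At an adjusted p under 0.05, 3 were called lower (SMAD7, PMEPA1 and TGFBI) and 0 higher, where 2.84% of all genes tested were called lower and 0.369% higher. The groups did not overlap in 4 genes that were lower and in 1 that was higher, against 12.1% and 10.0% of all genes tested. Because the genes were chosen on this comparison, nothing is read from these shares. The calls moved with single libraries. Without shControl replicate 1, TGFBR1 and SKIL were called lower as well (5 in all), but 18.3% of all genes were then called lower and 15.6% higher. Without any other single library PMEPA1 was the 1 call left. In those fits 101 to 198 of all genes tested (12539 to 12610) were called lower and 4 to 13 higher. With all 6 libraries 354 and 46 of 12450 were. After correction for GC content and transcript length within each library, an alternative chosen after seeing the data, TGFB1, TGFBR1 and SKIL joined the calls (6 in all), with log2 fold changes of -0.46, -0.43 and -0.40, where 10.4% of all genes were called lower and 6.92% higher. With the replicate number as a block PMEPA1 was again the 1 call, where 362 of all 12450 genes were called lower and 34 higher.

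**Figure D3:**
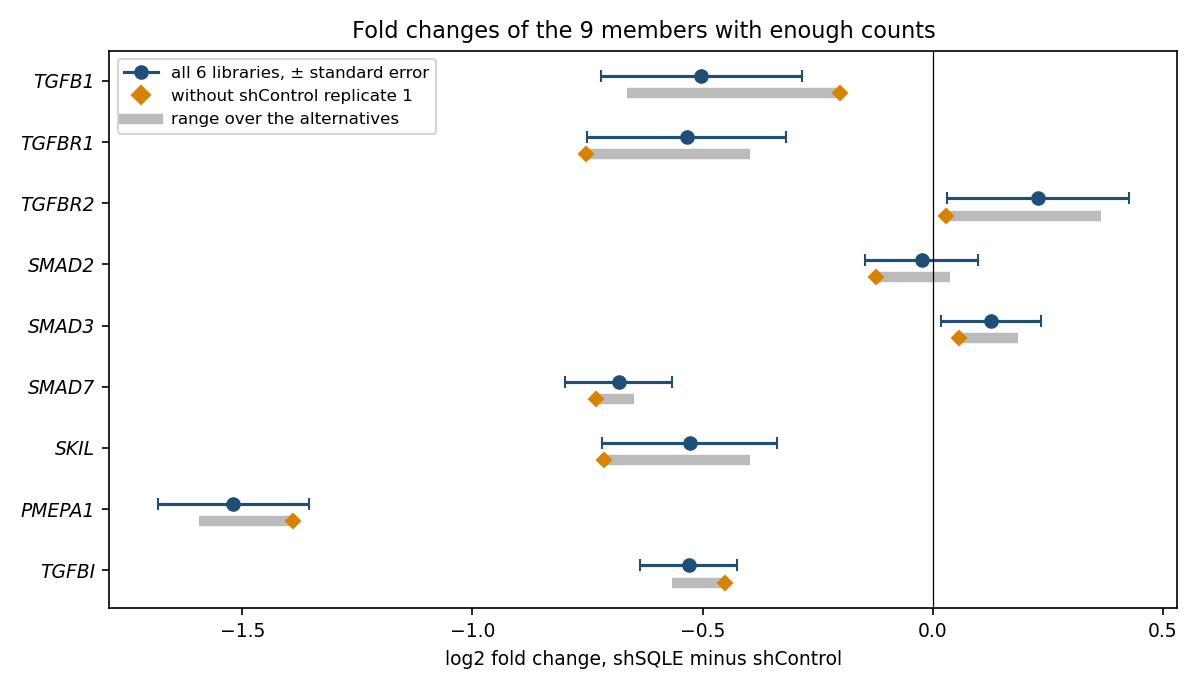
Log2 fold changes (shSQLE minus shControl) of the 9 genes with enough counts, with standard errors from all 6 libraries, grey bars for the range over the alternatives and diamonds for the fit without shControl replicate 1. PMEPA1 at -1.52 lies farthest from 0, and the fold changes of TGFB1 and TGFBR1 move most with that library.

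Ratios of counts within a library do not depend on its size, and they were computed for 4 pairs of members chosen after their values were seen. In each pair the member with the lower log2 fold change was the numerator, so this choice set the direction of the ratios. TGFBR1 stood to TGFBR2 at 0.682, 0.742 and 0.709 in the controls (replicates 1, 2 and 3) and at 0.427, 0.420 and 0.418 in the shSQLE libraries. In this ratio shControl replicate 1 lay near the other controls, and the groups were far apart (0.711 ± 0.0298 against 0.422 ± 0.00469, SD, n = 3 each). The ratio of the inhibitory SMAD7 to the signal-carrying SMAD3 was 0.396, 0.371 and 0.388 in shControl and 0.222, 0.216 and 0.220 in shSQLE. Here too no library of one group came near the other group. SMAD2 to SMAD3 differed less, with 0.879, 0.926 and 0.959 against 0.829, 0.818 and 0.847, and there shControl replicate 1 was nearer to shSQLE replicate 3 than to the other controls. Among the induced genes, PMEPA1 to TGFBI was 0.140, 0.126 and 0.130 against 0.073, 0.069 and 0.057, so PMEPA1 was lower even relative to the lower TGFBI. A ratio shows that 2 messages changed unequally and not which of them changed.

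**Figure D4:**
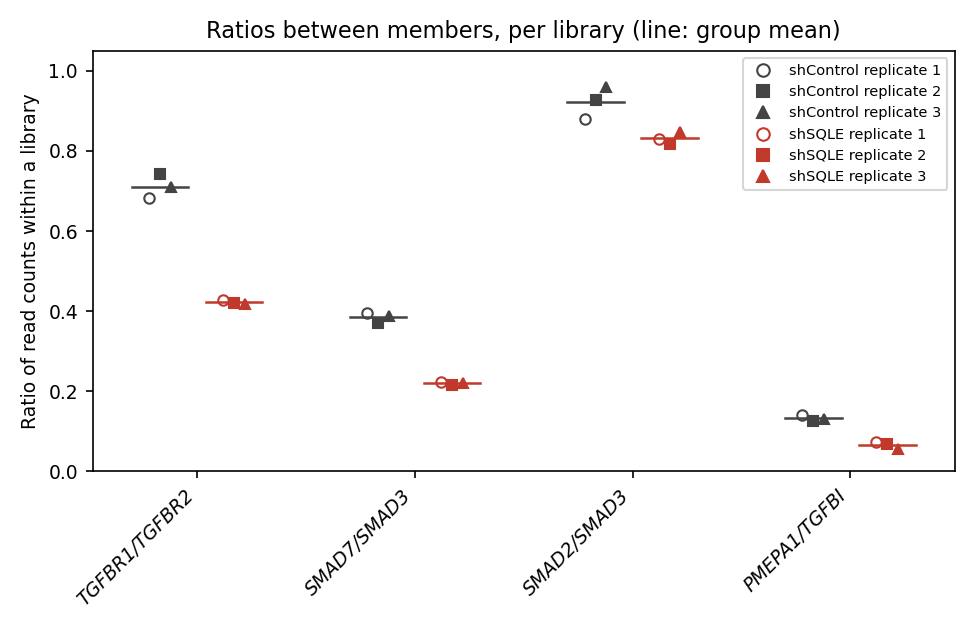
Ratios of raw read counts between members within each library, with lines for group means (shControl black, shSQLE red). The 3 shSQLE libraries lie below the 3 shControl libraries in all 4 ratios, a direction set by taking the member with the lower log2 fold change as numerator. Replicate 1 of shControl lies near the other controls except in SMAD2 to SMAD3, where it is nearer to shSQLE replicate 3.

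Over the 6 libraries, the gene most like PMEPA1 in log2 CPM was OASL, an interferon-stimulated gene, among 9363 genes with a mean of at least 10 CPM (Pearson r = 0.999). SLC33A1, the acetyl-CoA transporter of the endoplasmic reticulum, and OSBP2, an oxysterol-binding protein, came next, each with r = 0.997. OASL had normalized counts of 2214, 1342 and 1256 in shControl and 317, 294 and 183 in shSQLE, and so shared with PMEPA1 both the high shControl replicate 1 and the low shSQLE replicate 3. Among the members, r with PMEPA1 was 0.987 for TGFBI and 0.934 for SMAD7, and it was -0.747 for SMAD3. These values are descriptions over 6 libraries in 2 groups, and any gene that separates the groups scores highly.

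The rest of the pathway was described with 181 genes in 8 lists by role, of which 149 were tested. Among them 17 were lower and 4 higher at an adjusted p under 0.05 (14.1% called in either direction, against 3.21% of all genes tested). The calls lay in 4 of the 8 lists. The lists were chosen with earlier results of these data known, so nothing is read from these shares.

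Among the other TGF-beta and activin ligands, 1 of 4 genes tested was called, where 3.21% of all genes tested were. INHBA, the subunit of activin A, which signals through the same SMAD2 and SMAD3, had normalized counts of 445, 754 and 713 in shControl, against 148, 138 and 166 in shSQLE. All 3 shSQLE libraries were far below the controls. INHBA fell from 637 ± 168 to 150 ± 13.9 (SD, n = 3 each), which is -2.08 on the log2 scale with a standard error (SE) of 0.22 (adjusted p = 0.00267, Benjamini-Hochberg over all genes, from the quasi-likelihood test in edgeR). It kept its call in all 13 alternatives. TGFB3, the remaining TGF-beta ligand, had 25.4, 23.5 and 24.5 in shControl and 37.2, 33.5 and 40.1 in shSQLE (log2 fold change 0.59, adjusted p = 0.231 from edgeR), so it was scarce in both groups and its difference did not pass.

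Genes of latency and activation gave 0 calls of 14 by edgeR, where 3.21% of all genes tested were called. At an unadjusted p under 0.05 there were 6 (14.7% of all genes tested). DESeq2 gave 3 calls (5.16% of all genes it tested). The log2 fold change was negative in 12 of the 14 (median -0.40), and in 6420 of all 12450 genes tested. THBS1, the matrix protein thrombospondin 1 that can release latent TGF-beta, had 4453, 8712 and 8556 in shControl and 3983, 3808 and 5125 in shSQLE. The groups overlapped through shControl replicate 1 alone (log2 fold change -0.75, adjusted p = 0.210 from edgeR). ITGB5, an integrin subunit that binds the latent complex, had a log2 fold change of -0.17. Without shControl replicate 1 this list gave 5 lower calls, which were LTBP1, LTBP3, THBS1, ITGAV and FBN1, and 1 higher, NRROS (named after their values were seen), where 33.9% of all genes tested were called in either direction.

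Of the other receptors and co-receptors, 0 of 10 were called by edgeR (3.21% of all genes) and 0 by DESeq2 (5.16%). At an unadjusted p under 0.05 there were 2, against 14.7% of all genes. The most abundant were ENG, a co-receptor, at a log2 fold change of 0.22, and BMPR2, the type II receptor for bone morphogenetic proteins (BMPs), at -0.40. Without shControl replicate 1, 4 were lower and 1 higher, with BMPR2 among the lower and ENG the higher one, against 33.9% of all genes called in that fit.

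Among the other SMADs and nuclear partners, 1 of 20 was lower and 1 higher, where 2.84% of all genes tested were lower and 0.369% higher. ATF3, a stress-induced factor that acts with SMAD3, had 214, 171 and 199 normalized counts in shControl and 71.5, 67.0 and 46.2 in shSQLE, with no overlap. Its log2 fold change was -1.65 (SE 0.20, adjusted p = 0.00504 from edgeR), and it kept its call in all 13 alternatives. JUN, the AP-1 subunit that binds with SMADs at many target genes, rose from 2780 ± 68.5 to 3980 ± 174 (SD, n = 3 each, log2 fold change 0.52, adjusted p = 0.0265 from edgeR). JUN was no longer called when any library other than shControl replicate 1 was omitted, nor with a replicate block, and its adjusted p from edgeR reached 0.192. SMAD4, the partner of SMAD2 and SMAD3, had 724, 890 and 875 in shControl and 735, 654 and 776 in shSQLE (log2 fold change -0.20, adjusted p = 0.570 from edgeR), and the groups overlapped through shControl replicate 1. Without that library 8 of the list were lower and 3 higher, against 18.3% and 15.6% of all genes. SMAD4 was among the lower, its 1 call in 13 alternatives.

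Of the turnover and negative regulators, 0 of 20 were called by edgeR (3.21% of all genes) and 1 by DESeq2 (5.16% of all genes). At an unadjusted p under 0.05 there was 1 (14.7% of all genes). Their log2 fold changes ran from -0.23 to 0.37. FKBP1A, which holds TGFBR1 inactive, was at -0.20, and PPP1CA, the catalytic subunit of the phosphatase that acts on TGFBR1, at 0.20. Of the kinases and small GTPases of the non-SMAD arms, 0 of 18 were called by edgeR and 0 by DESeq2, beside the same 3.21% and 5.16%. At an unadjusted p under 0.05 there was 1, beside the same 14.7%. RHOA and CDC42, GTPases of the cytoskeleton, were at 0.14 and 0.24. Without shControl replicate 1 these 2 lists gave 8 and 4 lower calls and 3 and 1 higher, beside 18.3% of all genes lower and 15.6% higher.

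The induced targets of TGF-beta held most of the calls, 11 lower and 2 higher of 43 tested. Of all genes tested, 2.84% were lower and 0.369% higher. The median log2 fold change of the list was -0.36, with 31 of 43 negative, where 6420 of all 12450 genes tested were negative. COL5A1, a chain of type V collagen, had normalized counts of 1167, 1252 and 1306 in shControl and 288, 295 and 300 in shSQLE, which separated the groups by more than any spread within them (log2 fold change -2.08, SE 0.11, adjusted p = 0.000299 from edgeR). FN1, fibronectin, had 6745, 9189 and 9074 in shControl and 1132, 919 and 1350 in shSQLE, the lowest log2 fold change of the list at -2.88 (adjusted p = 0.000548 from edgeR). MMP2, a gelatinase, fell from 477 ± 33.1 to 198 ± 14.6 (SD, n = 3 each, log2 fold change -1.27, adjusted p = 0.00259 from edgeR). BHLHE40, a transcriptional repressor, fell from 2293 ± 159 to 1101 ± 78.6 (log2 fold change -1.06, adjusted p = 0.00267 from edgeR). These 4 kept their calls in all 13 alternatives.

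CCN1 and CCN2 rose. CCN1, a matricellular protein, had 2729, 2685 and 2634 in shControl and 4316, 4657 and 4102 in shSQLE (log2 fold change 0.70, SE 0.098, adjusted p = 0.00968 from edgeR). CCN1 was no longer called when shControl replicate 2, shSQLE replicate 1 or shSQLE replicate 2 was omitted, with an adjusted p from edgeR of up to 0.0804. CCN2, connective tissue growth factor, rose from 2985 ± 221 to 4291 ± 153 (SD, n = 3 each, log2 fold change 0.52, adjusted p = 0.0350 from edgeR). CCN2 was not called when any library but shControl replicate 1 was omitted, nor with library sizes alone or a replicate block, with an adjusted p from edgeR of up to 0.180. The 7 other genes called lower, named after their values were seen, were DACT1, IGFBP3, PTHLH, LOX, PDGFA, COL1A1 and IL11, from -2.26 to -0.57 on the log2 scale. Each of these 7 missed the threshold in several alternatives (highest adjusted p 0.253, for COL1A1, from edgeR). Of 13 alternatives, COL1A1 and LOX kept their call in 5, IL11 in 6, PDGFA in 7, PTHLH in 8 and IGFBP3 in 10. DACT1 kept its call in 9 of the 12 that tested it. When any library other than shControl replicate 1 was omitted, COL1A1, LOX, IL11, PDGFA and PTHLH were not called. Without shControl replicate 1 the list gave 23 lower and 4 higher calls of 43, where 18.3% of all genes were lower and 15.6% higher. After correction for GC content and length it gave 20 lower and 3 higher, where 10.4% and 6.92% of all genes were. Without any other single library it gave between 4 and 7 calls. In those fits 101 to 198 of all genes tested (12539 to 12610) were lower and 4 to 13 higher.

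In the BMP branch, 4 of 20 genes were lower and 1 higher, with a median log2 fold change of -0.04. Of all genes tested, 2.84% were lower and 0.369% higher. GREM1, a secreted BMP antagonist, had 2657, 3805 and 3962 in shControl and 1332, 1250 and 1407 in shSQLE, with no overlap (log2 fold change -1.39, SE 0.16, adjusted p = 0.00461 from edgeR). BMP2, a bone-inducing ligand, fell from 278 ± 37.2 to 113 ± 25.2 (SD, n = 3 each, log2 fold change -1.30, adjusted p = 0.0144 from edgeR). FST, which binds activin, fell by 0.74 on the log2 scale (adjusted p = 0.0233 from edgeR). GDF15, a stress-induced member of the family, had a log2 fold change of -1.53 from a low level (38.9 ± 9.79 to 13.3 ± 4.06 normalized counts, adjusted p = 0.0475 from edgeR). NOG, noggin, another BMP antagonist, rose from 131 ± 20.6 to 231 ± 15.9 (log2 fold change 0.82, adjusted p = 0.0356 from edgeR). GREM1 kept its call in all 13 alternatives. BMP2 was not called when shControl replicate 2, shSQLE replicate 2 or shSQLE replicate 3 was omitted, with an adjusted p from edgeR of up to 0.0970. FST, GDF15 and NOG were not called when any library other than shControl replicate 1 was omitted, with adjusted p from edgeR of up to 0.155, 0.228 and 0.191. GDF15 was also not called with a replicate block or with DESeq2's size factors in edgeR.

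**Figure D5:**
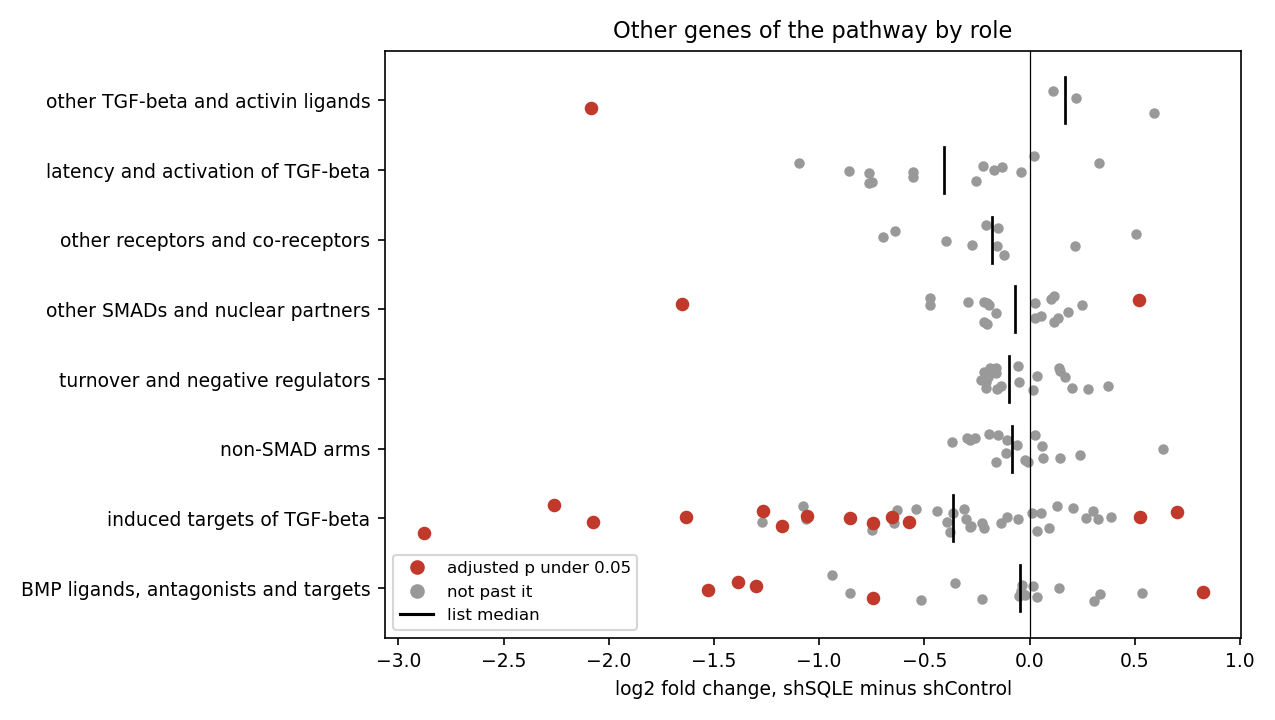
Log2 fold changes (shSQLE minus shControl) of the 149 tested genes of the 8 role lists, one point per gene, red where the adjusted p was under 0.05, with list medians as black lines. Red points lie mainly among the induced targets, with 11 lower and 2 higher of 43 tested (2.84% and 0.369% of all genes tested). The lists of receptors, latency genes, regulators and non-SMAD arms have none, where 3.21% of all genes tested were called.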

How the data were processed

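Poly(A) RNA was sequenced as 151 bp pairs. Raw counts per gene were deposited, which the authors obtained with fastp 0.20.0 for trimming, STAR 2.7.9a for alignment on hg38 and featureCounts 2.0, per the submitters' processing notes and the study's methods. The annotation release, strand setting and treatment of multi-mapping reads are not given in the sources used here.

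With R 4.3.3 and edgeR 4.0.16, filterByExpr left 12450 of 19937 genes, TMM normalized the libraries, and the quasi-likelihood test compared shSQLE with shControl with Benjamini-Hochberg adjustment at 0.05 over all genes. Each standard error is the absolute log2 fold change over the square root of F. DESeq2 1.42.0 (the tool of the study) and mgcv 1.9.3 (GC content and length correction) served alternatives, beside other scalings, filters, a replicate block and omission of each library. The code was tested on simulated data. Symbols came from a table that matched all but 32 identifiers. TPM used GENCODE v44 lengths.

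All 10 members are named. From each role list, called genes (at most 5, by smallest p) or, without calls, the 2 most abundant are named, with SMAD4, TGFB3 and CCN2. Beyond this rule, the other called induced targets were named after their values were seen. So were the latency genes called without shControl replicate 1. Some genes of the lists are not reported here by name. The members and lists were chosen with earlier results of these data known.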

Additional observations from a re-analysis of the deposited data

How the results depend on the processing

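Genes called lower and higher numbered 354 and 46 with all libraries, 556 and 158 with DESeq2, and 1294 and 862 after correction for GC content and transcript length (an alternative chosen after seeing the data). Leaving out 1 library at a time gave from 101 to 2300 lower and from 4 to 1964 higher, with the highest counts without shControl replicate 1. Genes whose groups do not overlap went from 2752 to between 3210 and 7511 when 1 library was left out, where smaller groups separate more easily, and to 4571 after that correction. The median log2 fold change of the 9 members tested went from -0.53 to between -0.54 and -0.41 when 1 library was left out and was -0.43 after it. Of the 9 members tested, none that was called changed sign in any of the 13 alternatives. None moved in log2 fold change by as much as the pooled SD of its libraries (log2). For the fits that omit a library this was nearly fixed in advance, because the omitted library also widens that SD, so nothing is read from it. TGFB1 went from -0.50 to -0.20 without shControl replicate 1.

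Calls per role list, when 1 library was left out, ranged from 0 to 6 for latency and activation, 0 to 5 for other receptors, 1 to 11 for other SMADs and nuclear partners, 0 to 11 for turnover and negative regulators, 0 to 5 for the non-SMAD arms, 4 to 27 for induced targets and 1 to 8 for the BMP branch, and stayed at 1 for other ligands. The highest of each range came without shControl replicate 1, where 33.9% of all genes tested were called in either direction. After correction for GC content and length the calls were 6 for latency, 3 for receptors, 3 for turnover, 1 for non-SMAD arms, 23 for induced targets and 9 for the BMP branch. In that fit 10.4% of all genes were called lower and 6.92% higher. Latency and activation gave 3 calls with DESeq2, 1 with library size only and 2 with every gene that had a count kept, and turnover gave 1 with DESeq2. DESeq2 called 5.16% of all genes it tested. The cause of these shifts was not tested.

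The labels do not say whether the replicate numbers pair the libraries. Deviations of same-numbered libraries from their group means correlated at 0.138, -0.433 and 0.543 over 12450 genes for replicates 1, 2 and 3. These values cannot decide it, because deviations within so few libraries depend on each other and shControl replicate 1 stood apart. With a replicate block, 362 genes were called lower and 34 higher, latency and activation gave 2 calls, other SMADs and nuclear partners gave 1, and 1 member (PMEPA1) was called in place of 3.

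The median TPM of the members in shControl was 30.9 on canonical and 41.1 on median coding transcript lengths. TGFB2 rests on 4 to 22 counts a library.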
